A study of Rattus norvegicus with 64 samples.

Results

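B-cell identity and receptor genes were followed in the whole blood of rats. The list holds 33 genes, and a gene counted as a member when its symbol, read without regard to case, was listed in every deposited count file. Of these, 32 were listed in every file, among 17366 genes listed in all files and 26405 listed in any. Cd79a, which codes for a signalling chain of the B-cell antigen receptor, was listed in no file and has no value here. The 64 rats were male Sprague-Dawley rats 85 to 90 days old. Each was given 4 injections 2 h apart, and blood drawn from the heart 3 h after the last injection was depleted of globin mRNA and sequenced, 1 library for each rat. Amphetamine (AMPH) was given in a 22.5 °C environment, where the rats became hyperthermic and the exposure is neurotoxic (AMPH 22.5 °C, 22 rats), or at 16 °C, where they stayed normothermic (AMPH 16 °C, 15 rats). Saline was given at 22.5 °C (6 normothermic rats), at 16 °C (5 normothermic rats) or at 39 °C, where the environment alone made the rats hyperthermic (16 rats). Rats are named by group and replicate number.

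B cells carry an antigen receptor made of membrane immunoglobulin and the chains coded by Cd79a and Cd79b. Binding of antigen starts a cascade through Src-family kinases such as Blk, the kinase Btk and the adaptors Blnk and Pik3ap1 to the phospholipase Plcg2. The co-receptor Cr2 strengthens this signal, whereas Cd22 and Cd72 restrain it. Pax5 and Ebf1 commit precursor cells to the lineage. Btk, Plcg2, Irf8 and Pik3ap1 are not restricted to B cells and are also made by myeloid cells. In whole blood, fewer B cells and less RNA per B cell cannot be told apart.

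Total counts ran from 19055615 to 40530319 per rat. The 5 rats with more than 5000 counts of Mb, the myoglobin transcript of heart muscle, were left out, which kept 59 rats: 4 saline 22.5 °C, 22 AMPH 22.5 °C, 5 saline 16 °C, 13 AMPH 16 °C and 15 saline 39 °C rats. The name of each deposited file starts with a code, most often shared by several rats, 13 codes in all, whose meaning the labels do not give. The groups were spread unevenly over the codes, so the code was a term of the fit. AMPH 22.5 °C replicate 21 and AMPH 16 °C replicate 10 were each alone in their code and carried no weight in any fitted difference. No saline 22.5 °C rat shared a code with a saline 39 °C, saline 16 °C or AMPH 16 °C rat, and the 5 saline 16 °C rats had 1 code that also held 1 rat each of the other groups but saline 22.5 °C. The study sequenced the RNA of a matching control group again, and which run the saline 22.5 °C files hold is not given. Differences were tested with edgeR (quasi-likelihood) over 14000 genes, Benjamini-Hochberg adjustment covered all of them, and a gene was called when its adjusted p fell under 0.05. All 32 members passed the filter on low counts. Levels are counts normalized by size factors, and fold changes are on the log2 scale from the edgeR fit, each with its standard error after the ± sign.

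The defining B-cell markers were present in every rat. The sum of Cd79b, Ms4a1 (CD20), Pax5 and Cd22 had a median of 8624.6 normalized counts in the saline 22.5 °C rats (3251.7 to 12749.6) and 8298.8 in the saline 16 °C rats (5171.1 to 10059.6). It was 4679.7 in the AMPH 22.5 °C rats (1991.5 to 12904.7), 3526.5 in the AMPH 16 °C rats (2520.0 to 6858.0) and 4771.1 in the saline 39 °C rats (2334.2 to 10889.4). The ranges of the 5 groups overlapped. By group median, AMPH 16 °C was the lowest group for 25 of the 32 members, saline 22.5 °C the highest for 25 and saline 39 °C the highest for the other 7. These sums and medians are not adjusted for the file code. With the code in the fit, saline 16 °C against saline 22.5 °C had 20 members positive and 12 negative (median log2 fold change 0.07).

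Single rats deviated in most members together. Saline 22.5 °C replicate 19 had the lowest level of its group in 29 of the 32 members, with a median log2 difference of -1.10 from the group median. Its summed monocyte markers (349765.7 normalized counts, group median 174051.2) and summed neutrophil markers were the highest of the group and its summed T-cell markers (8764.0, group median 10073.1) the lowest. AMPH 22.5 °C replicate 17 had the highest level of its group in 22 members, with a median log2 difference of 1.25. Its summed T-cell markers (13624.6, group median 4870.6) were the highest and its summed monocyte (111690.2, group median 336891.3) and neutrophil markers the lowest of the group. These 2 rats, which share a file code, thus lay toward the other group's level. Saline 39 °C replicate 7 had the highest level in 17 members, with Blk at 1700.4 normalized counts against a group median of 451.8, and it too had the lowest summed monocyte markers of its group (65672.4, group median 394650.1). AMPH 22.5 °C replicate 21 was lowest in 14 members, with Tnfrsf13c, Tnfrsf13b, Cxcr5 and Ebf1 at 0 and Irf8 at 22.2, while its Cd37, at 9900.3, was the highest of the group.

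**Figure D1:**
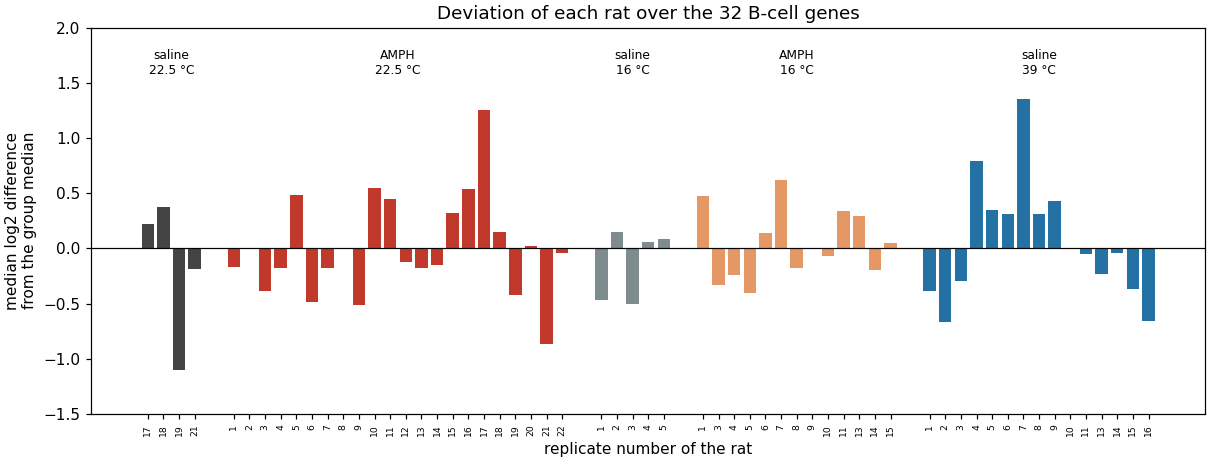
Median over the 32 B-cell genes of each rat's log2 difference from its group median (y axis), for the 59 rats ordered by group (x axis). Saline 22.5 °C replicate 19 lies at -1.10 and AMPH 22.5 °C replicate 17 at 1.25, and saline 39 °C replicate 7 has the highest value of the 59 rats.

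More members differed between the saline 39 °C and the AMPH 16 °C rats, that is between hyperthermia without drug and drug without hyperthermia, than in any other comparison. Drug and environment both differ between these groups, so their parts cannot be told apart here. In the saline 39 °C rats 8 of the 32 members were called higher and 0 lower, or 25% of the members beside 14.3% of all genes called, 7.23% higher and 7.1% lower. They were the transcription factors Irf8 and Pou2af1, the signalling genes Btk, Plcg2, Blk and Pik3ap1, and the surface receptors Cd22 and Cr2. Positive values were found for 27 of the 32 members, with a median of 0.46 against 0.01 over all genes tested. Of the B-cell markers summed above, Cd22 was thus called, whereas Cd79b (0.18 ± 0.33), Ms4a1 (0.05 ± 0.31) and Pax5 (0.32 ± 0.30) were not. The same 8 members were called when saline 39 °C replicate 7 was left out, an alternative chosen after seeing the data.

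**Figure D2:**
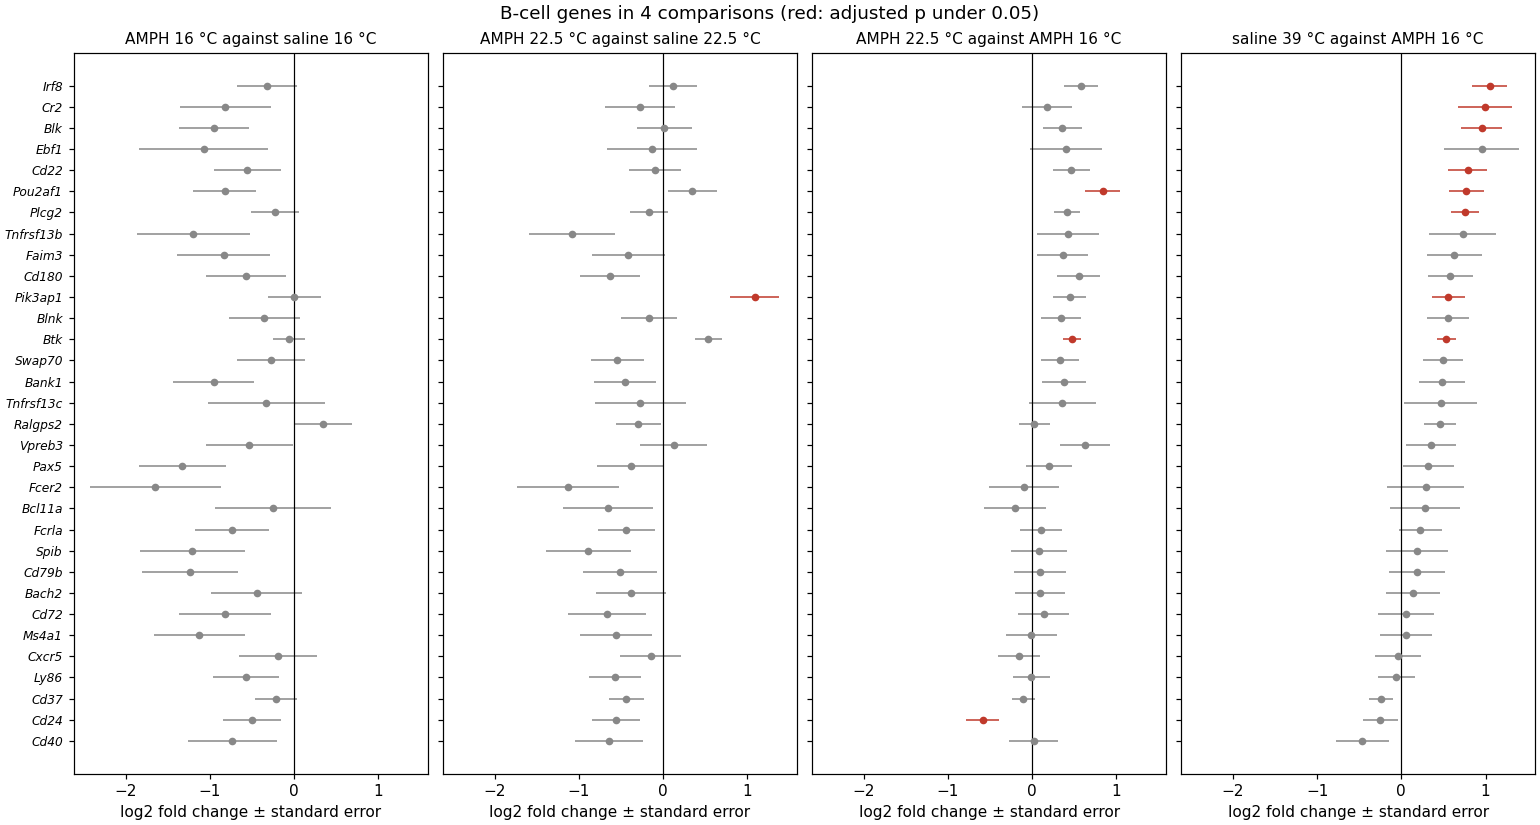
Log2 fold change of each B-cell gene with its standard error (x axes) in 4 comparisons, with the genes on the y axis and called genes in red. Called genes number 8 in saline 39 °C against AMPH 16 °C, 3 in AMPH 22.5 °C against AMPH 16 °C, 1 in AMPH against saline at 22.5 °C and 0 at 16 °C.

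Of the 7 transcription factors 2 were called. Irf8 (ENSRNOG00000017869), which acts in B cells and in monocyte and dendritic cell development, ran from 224.0 to 1556.3 with a median of 473.2 normalized counts at 39 °C and from 125.5 to 261.3 with a median of 194.7 in the AMPH 16 °C rats. All 15 saline 39 °C rats lay above the AMPH 16 °C median and 14 of them above every AMPH 16 °C rat. Its log2 fold change was 1.05 ± 0.21, adjusted p = 0.000352. Pou2af1 (ENSRNOG00000011500), the coactivator of octamer-binding factors at immunoglobulin promoters, ran from 653.4 to 2507.4 with a median of 1328.7 normalized counts at 39 °C and from 466.9 to 1227.1 with a median of 604.8 in the AMPH 16 °C rats. Again all 15 saline 39 °C rats lay above the AMPH 16 °C median, and 9 of them above every AMPH 16 °C rat (0.77 ± 0.21, adjusted p = 0.00975). The other factors, namely Pax5, Ebf1 (0.95 ± 0.45, adjusted p = 0.158), the Ets factor Spib, the repressor Bach2 and the zinc finger factor Bcl11a, had values from 0.14 to 0.95 and were not called.

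Of the 8 signalling genes 4 were called. Btk (ENSRNOG00000011331), the Tec-family kinase of the receptor cascade, ran from 514.1 to 1019.6 with a median of 706.1 normalized counts at 39 °C and from 368.8 to 662.1 with a median of 481.3 in the AMPH 16 °C rats. All 15 saline 39 °C rats exceeded the AMPH 16 °C median and 9 exceeded every AMPH 16 °C rat (0.53 ± 0.11, adjusted p = 0.000666). Plcg2 (ENSRNOG00000013676), the phospholipase that Btk activates, ran from 513.3 to 1758.0 with a median of 850.5 normalized counts at 39 °C and from 247.3 to 727.6 with a median of 537.8 in the AMPH 16 °C rats. For Plcg2 13 of 15 rats exceeded the AMPH 16 °C median and 11 exceeded every AMPH 16 °C rat (0.75 ± 0.17, adjusted p = 0.00129). Blk (ENSRNOG00000010798), a Src-family kinase of B cells, ran from 246.8 to 1700.4 with a median of 451.8 normalized counts at 39 °C and from 131.0 to 344.9 with a median of 189.4 in the AMPH 16 °C rats. All 15 rats lay above the AMPH 16 °C median and 10 above every AMPH 16 °C rat (0.95 ± 0.24, adjusted p = 0.00521). Pik3ap1 (ENSRNOG00000013309), the adaptor that brings phosphoinositide 3-kinase to the receptor, ran from 1285.6 to 3270.4 with a median of 2040.9 normalized counts at 39 °C and from 602.7 to 2234.7 with a median of 1231.2 in the AMPH 16 °C rats. It lay nearest to the threshold (0.56 ± 0.20, adjusted p = 0.0470), with all 15 rats above the AMPH 16 °C median but 4 above every AMPH 16 °C rat, and it was not called without the filter on low counts (0.55, edgeR adjusted p = 0.0578). The adaptor Blnk (0.55 ± 0.25), the scaffold Bank1 (0.48 ± 0.28), the Ral exchange factor Ralgps2 (0.46 ± 0.19) and Swap70 (0.50 ± 0.24), which acts on the cytoskeleton, also had positive values and were not called.

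Of the 10 surface genes 2 were called. Cd22 (ENSRNOG00000024000), the inhibitory co-receptor that binds sialic acid, ran from 575.3 to 3200.3 with a median of 991.4 normalized counts at 39 °C and from 476.8 to 918.1 with a median of 549.1 in the AMPH 16 °C rats. Of the saline 39 °C rats 11 of 15 lay above every AMPH 16 °C rat (0.79 ± 0.23, adjusted p = 0.0148). Cr2 (ENSRNOG00000034164), the complement receptor CD21, ran from 250.1 to 2157.9 with a median of 559.1 normalized counts at 39 °C and from 156.0 to 526.7 with a median of 225.2 in the AMPH 16 °C rats. For Cr2 8 of 15 rats lay above every AMPH 16 °C rat (0.99 ± 0.32, adjusted p = 0.0285), and for both genes all 15 lay above the AMPH 16 °C median. With only the 7 saline 39 °C and 10 AMPH 16 °C rats of the 5 file codes that hold both groups, Cr2 had a value of 0.60 and was not called (edgeR adjusted p = 0.182), whereas the other 7 genes were. The other surface genes ran from -0.25 in Cd24, a lipid-anchored glycoprotein, to 0.63 in Faim3, an Fc receptor for IgM. Among them were the tetraspanin Cd37 (-0.24 ± 0.14), Cd72 (0.06 ± 0.33), the IgE receptor Fcer2 (CD23, 0.29 ± 0.46) and Fcrla (0.23 ± 0.26), an Fc receptor-like protein inside the cell.

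No receptor for survival, homing or T-cell help was called. The values were 0.47 ± 0.44 for the BAFF receptor Tnfrsf13c, 0.73 ± 0.40 for its relative Tnfrsf13b (TACI), -0.04 ± 0.27 for the follicle-homing receptor Cxcr5 and -0.46 ± 0.31 for Cd40. The Toll-like receptor Cd180 (RP105, 0.58 ± 0.27), its partner Ly86 (MD-1, -0.06 ± 0.23) and the surrogate light chain-like Vpreb3 (0.35 ± 0.29) were not called either. Within the 5 shared file codes, the mean level was higher in the saline 39 °C rats in 5 of 5 codes for each called gene but Pik3ap1, for which it was higher in 4. Blnk and Faim3, not called, were also higher in 5 of 5. Some of these codes hold 1 rat of each group, and the genes were called from the same rats, so this is no separate support. The counts of rats above every AMPH 16 °C rat are not adjusted for the file code. A code outside these 5 held 5 of the 15 saline 39 °C rats (replicates 6, 7, 8, 9 and 11) and no AMPH 16 °C rat.

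**Figure D3:**
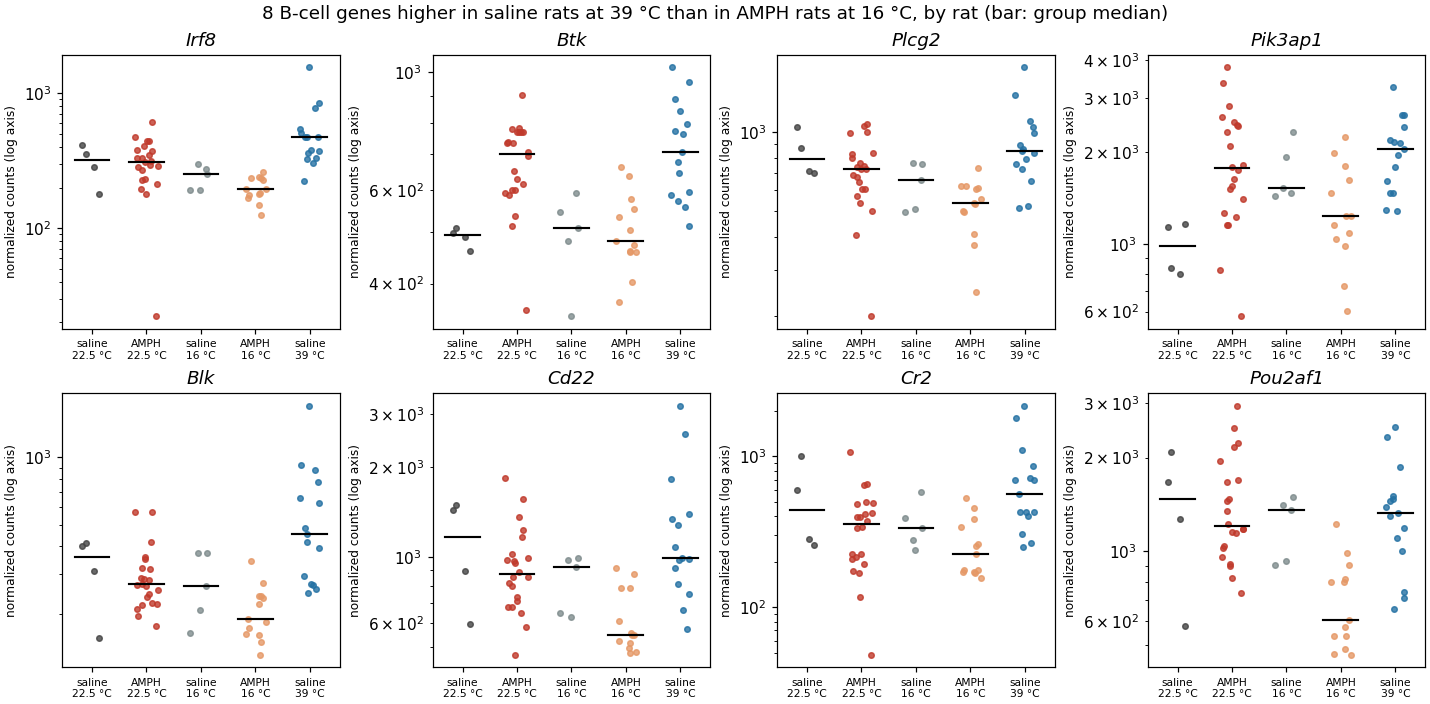
Normalized counts (log axis) of the 8 genes called higher in saline 39 °C than in AMPH 16 °C rats, with 1 point for each of the 59 rats in the 5 groups and bars at the group medians. For all 8 genes the AMPH 16 °C median lies below the saline 39 °C median, for Irf8 at 194.7 against 473.2, and single rats of these groups overlap.

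Markers of other leukocytes moved between the same groups. Of 6 monocyte markers 1 was called higher at 39 °C (Csf1r, 0.73 ± 0.24, adjusted p = 0.0323) and 0 lower, with sums of 65672.4 to 656634.8 normalized counts at 39 °C and 236918.3 to 576561.9 in the AMPH 16 °C rats. Of 6 neutrophil markers 2 were called lower (S100a8, -1.59 ± 0.38, and S100a9, -1.16 ± 0.35), with sums of 58470.9 to 324072.1 and 240813.3 to 718317.3. Of 8 T-cell markers 1 was called lower (Cd2, -0.78 ± 0.25, adjusted p = 0.0298) and 8 had negative values. Of 4 NK-cell markers 1 was called lower (Ncr1, -1.24 ± 0.29, adjusted p = 0.00237) and 0 higher, with sums of 1348.7 to 5325.7 and 2193.0 to 4912.3. None of these markers was at 0 in any rat. The part of monocytes and other cells in the levels of Irf8, Btk, Plcg2 and Pik3ap1 was not tested.

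**Figure D4:**
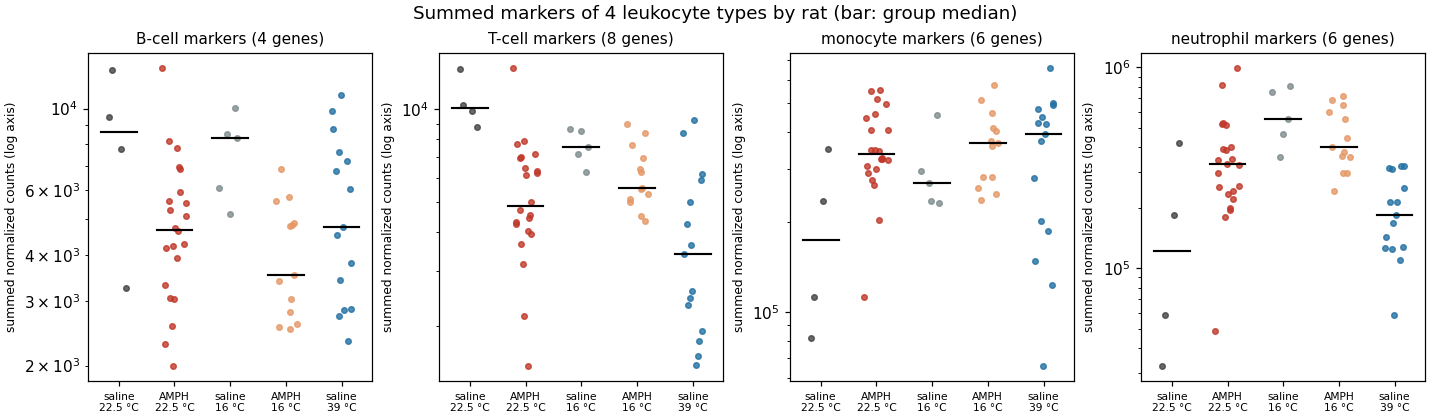
Summed normalized counts (log axes) of 4 B-cell, 8 T-cell, 6 monocyte and 6 neutrophil markers in each rat of the 5 groups, with bars at the group medians. The B-cell and T-cell sums have their highest medians in the saline 22.5 °C rats (8624.6 and 10073.1), where the monocyte and neutrophil sums have their lowest.

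The promoters of the members were searched on both strands for short motifs of B-cell and heat-responsive factors. RefSeq promoters (GRCr8, 250 bases before to 50 after the start) were matched to 22 of the 32 members. The octamer ATGCAAAT, at which Pou2af1 acts, was found in 2 of them (Blnk and Vpreb3) and in 1.78% of all 33469 promoters. The core GAGGAA of Ets factors such as PU.1 and Spib was found in 10 of the 22 and in 27.6% of all promoters. Of the 6 matched genes called between saline 39 °C and AMPH 16 °C, 4 held this core (Cd22, Btk, Plcg2 and Pik3ap1), and Irf8 and Cr2 did not. The Ebf1 site, TCCC and GGGA separated by 2 bases, was found in 0 members and 0.834% of all promoters, and the heat shock element, GAA, TTC and GAA each separated by 2 bases, in 0 and 0.798%. A match describes letters in this window and not binding. Shown are the promoters with the octamer, those of the called genes Btk and Plcg2 with the Ets core, and that of Irf8, the member with the lowest adjusted p, each 5′ to 3′ in the direction of the gene with motif matches in capitals. Blnk lies at chr1:249770484-249770783 on the minus strand, Vpreb3 at chr20:12718177-12718476 on the minus strand, Btk at chrX:102055094-102055393 on the minus strand, Plcg2 at chr19:62455946-62456245 on the plus strand and Irf8 at chr19:65699034-65699333 on the plus strand.
Blnk: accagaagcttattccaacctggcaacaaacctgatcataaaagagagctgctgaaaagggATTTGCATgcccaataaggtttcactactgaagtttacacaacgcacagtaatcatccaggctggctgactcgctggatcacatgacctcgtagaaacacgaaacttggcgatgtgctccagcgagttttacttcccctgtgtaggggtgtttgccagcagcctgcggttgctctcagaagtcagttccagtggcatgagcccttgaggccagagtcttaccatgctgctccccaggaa
Vpreb3: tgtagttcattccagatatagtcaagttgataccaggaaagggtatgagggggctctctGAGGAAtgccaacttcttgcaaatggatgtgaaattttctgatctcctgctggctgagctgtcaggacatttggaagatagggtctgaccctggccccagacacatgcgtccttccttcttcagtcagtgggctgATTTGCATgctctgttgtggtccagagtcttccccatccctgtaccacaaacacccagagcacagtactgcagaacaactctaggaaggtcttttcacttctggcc
Btk: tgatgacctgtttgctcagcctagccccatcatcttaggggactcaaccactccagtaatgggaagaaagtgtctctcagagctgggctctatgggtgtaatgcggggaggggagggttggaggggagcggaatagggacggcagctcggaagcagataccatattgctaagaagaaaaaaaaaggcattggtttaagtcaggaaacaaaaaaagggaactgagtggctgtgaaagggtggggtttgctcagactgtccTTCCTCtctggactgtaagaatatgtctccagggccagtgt
Plcg2: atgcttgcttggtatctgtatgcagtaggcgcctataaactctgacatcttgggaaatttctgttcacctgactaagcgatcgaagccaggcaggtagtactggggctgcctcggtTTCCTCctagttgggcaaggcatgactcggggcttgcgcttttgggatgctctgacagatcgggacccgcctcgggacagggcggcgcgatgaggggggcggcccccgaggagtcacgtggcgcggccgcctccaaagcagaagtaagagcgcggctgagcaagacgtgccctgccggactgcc
Irf8: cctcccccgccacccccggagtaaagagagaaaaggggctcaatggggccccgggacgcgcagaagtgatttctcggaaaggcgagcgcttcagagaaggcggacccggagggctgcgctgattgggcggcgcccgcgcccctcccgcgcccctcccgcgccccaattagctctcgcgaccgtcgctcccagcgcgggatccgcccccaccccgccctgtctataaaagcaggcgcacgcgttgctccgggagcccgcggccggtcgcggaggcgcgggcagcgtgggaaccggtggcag

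The AMPH 22.5 °C rats were compared with the AMPH 16 °C rats, which had the same drug in a cool environment. In the AMPH 22.5 °C rats 2 members were called higher and 1 lower, beside 10.3% of all genes called, 5.61% higher and 4.69% lower. Btk ran from 357.0 to 906.3 normalized counts in the AMPH 22.5 °C rats, with 21 of 22 above the AMPH 16 °C median (0.47 ± 0.11, adjusted p = 0.00298). Pou2af1 ran from 737.6 to 2931.8 with a median of 1204.2, with all 22 rats above that median (0.84 ± 0.21, adjusted p = 0.00657). Both genes were higher in 5 of the 5 file codes that hold both groups, as were Cd22, Blk, Bank1 and Plcg2, which were not called. Cd24 was called lower (-0.59 ± 0.20, adjusted p = 0.0479), at 95.0 to 409.3 with a median of 240.1 in the AMPH 22.5 °C rats and from 181.4 to 475.0 with a median of 258.1 in the AMPH 16 °C rats. These ranges overlapped widely, 12 of 22 rats lay below the AMPH 16 °C median, and without the code term the value was -0.29 (edgeR adjusted p = 0.244). Irf8 (0.58 ± 0.20, adjusted p = 0.0543) and Plcg2 (0.41 ± 0.16, adjusted p = 0.0835) were not called. Positive values were found for 25 of the 32 members, with a median of 0.26 against 0.02 over all genes. Of the markers of other leukocytes, those called were 0 higher and 0 lower of 8 T-cell markers, 0 and 0 of 6 monocyte markers, 0 and 0 of 6 neutrophil markers and 0 and 2 of 4 NK-cell markers, and their part in the B-cell values was not tested.

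Between the 2 hyperthermic groups, saline 39 °C and AMPH 22.5 °C, 0 members were called higher and 0 lower by edgeR, beside 2.71% of all genes called, 1.14% higher and 1.58% lower, with 5 members at an unadjusted p under 0.05. The highest values were those of Cr2 (0.82 ± 0.31, adjusted p = 0.132) and Blk (0.60 ± 0.23, adjusted p = 0.140). DESeq2 called 1 member, Cr2 (0.84, adjusted p = 0.0450). The AMPH 22.5 °C rats had Cr2 from 48.4 to 1070.8 with a median of 357.4 normalized counts, a range that overlapped that of the saline 39 °C rats. The members' median was 0.12 against -0.01 over all genes. Of the markers of other leukocytes, those called were 0 higher and 0 lower of 8 T-cell markers, 1 and 0 of 6 monocyte markers, 0 and 0 of 6 neutrophil markers and 0 and 0 of 4 NK-cell markers, with 7 of 8 T-cell markers negative, and their part in the B-cell values was not tested.

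AMPH was then compared with saline in the same environment. At 16 °C, 31 of the 32 members had a negative value, all but Ralgps2, with a median of -0.57 against 0.01 over all genes, yet 0 members were called in either direction, as were 0% of all genes. At an unadjusted p under 0.05 stood 6 members (Pax5, Blk, Pou2af1, Cd79b, Fcer2 and Ms4a1), edgeR's smallest adjusted p was 0.307, and DESeq2 called 0. Pax5 stood at 177.3, 507.1, 161.7, 276.6 and 369.4 normalized counts in saline 16 °C replicates 1 to 5 and ran from 57.9 to 233.7 with a median of 108.8 in the AMPH 16 °C rats (-1.33 ± 0.52). Cd79b, the receptor chain, stood at 2815.2, 4487.0, 2968.0, 5191.2 and 4480.4 in the saline rats and ran from 1110.6 to 3519.1 with a median of 1689.5 in the AMPH rats (-1.24 ± 0.57). Fcer2 had the most negative value (-1.65 ± 0.78), at 560.5, 952.2, 587.6, 836.5 and 717.6 in the saline rats and from 55.3 to 669.4 with a median of 190.5 in the AMPH rats. The groups overlapped in each gene. The standard errors were wide, with 1 AMPH 16 °C rat in the file code of the saline 16 °C rats. All 8 T-cell markers were negative as well, with 0 called, and their part in the B-cell values was not tested.

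At 22.5 °C, 1 member was called higher in the AMPH than in the saline rats and 0 lower, beside 2.54% of all genes called, 2.18% higher and 0.357% lower. Pik3ap1 stood at 1138.3, 835.0, 1166.7 and 795.5 normalized counts in saline replicates 17, 18, 19 and 21 and ran from 579.4 to 3792.8 with a median of 1771.4 in the AMPH rats, with 18 of 22 above every saline rat (1.09 ± 0.29, adjusted p = 0.0359). It was not called without saline replicate 17, 18 or 21 (values of 1.18, 1.03 and 0.98, edgeR adjusted p = 0.109, 0.138 and 0.208), nor with only the file codes shared by both groups (1.12, edgeR adjusted p = 0.265). Btk stood at 497.8, 508.1, 461.1 and 490.3 in the saline rats, with 21 of 22 AMPH rats above all of them (0.54 ± 0.16, adjusted p = 0.0532). Most other members stood on the lower side, with 26 of 32 values negative and a median of -0.40 against -0.03 over all genes. Fcer2 had the most negative value, at 1256.2, 1784.0, 406.9 and 767.5 in the saline rats and from 76.9 to 1983.8 with a median of 228.4 in the AMPH rats (-1.14 ± 0.61, adjusted p = 0.248). Its highest AMPH value was that of replicate 17 and its lowest saline value that of replicate 19.

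The number of members called at 22.5 °C depended on these 2 rats. Without both of them 10 members were called, 2 higher and 8 lower, with 22.4% of all genes called. Both rats were singled out with their levels known, and since they lay toward the other group, leaving them out widens the difference by construction and is no support for it. Without saline replicate 19 alone 2 were called (Btk and Pik3ap1, both higher). Without AMPH replicate 17 alone, an alternative added after seeing the data, 4 were called, 2 higher and 2 lower (Fcer2 and Tnfrsf13b). The counts with 1 rat left out are given without the share of all genes called, so they do not set the members apart from other genes. With both rats in the fit, 8 of 8 T-cell and 4 of 4 NK-cell markers had negative values and none was called, while 1 of 6 neutrophil markers was called higher (Csf3r, 1.41 ± 0.38), the T-cell sums being 8764.0 to 13516.0 in the saline and 1477.5 to 13624.6 in the AMPH rats. Their part in the B-cell values was not tested.

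An interaction term compared the effect of AMPH at 22.5 °C with its effect at 16 °C. The effects differed by the call rule for 0 of the 32 members and 0% of all genes by edgeR, with 3 members at an unadjusted p under 0.05 and 0 called by DESeq2. They were Pou2af1 (difference of log2 fold changes 1.17 ± 0.48, adjusted p = 0.602), Pik3ap1 (1.09 ± 0.45) and Btk (0.59 ± 0.25), each with the more positive effect at 22.5 °C. The saline groups of this comparison share no file code.

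The saline 39 °C rats were also set against the saline controls. Against saline 16 °C, 0 members were called higher and 0 lower by edgeR, beside 8.77% of all genes called, 6.11% higher and 2.66% lower, with 5 at an unadjusted p under 0.05 and 0 called by DESeq2. Values ran from -1.36 to 0.80, with a median of -0.19 against 0.02 over all genes. Of the 8 members called against AMPH 16 °C, Blk had 0.003 ± 0.42, Pou2af1 -0.05 ± 0.36, Cr2 0.17 ± 0.53 and Cd22 0.23 ± 0.39. Btk had 0.47 ± 0.19, Plcg2 0.53 ± 0.29, Pik3ap1 0.56 ± 0.34 and Irf8 0.73 ± 0.35. With only the shared file code in the fit, 1 saline 39 °C rat faced 5 saline 16 °C rats. That fit describes the lone rat, saline 39 °C replicate 2, which had the lowest level of its group in 9 members, and not the group. In the fit of all 59 rats, the markers called were 0 higher and 2 lower of 8 T-cell markers, 2 and 0 of 6 monocyte markers, 0 and 0 of 6 neutrophil markers and 0 and 1 of 4 NK-cell markers. Their part in the B-cell values was not tested.

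Against saline 22.5 °C, with which it is linked only through AMPH rats, saline 39 °C had 1 member called higher (Pik3ap1, 1.199 ± 0.343, adjusted p = 0.0439) and 0 lower, beside 2.87% of all genes called, 1.94% higher and 0.929% lower. This call, too, was lost without saline 22.5 °C replicate 17, 18 or 21 (values of 1.30, 1.15 and 1.10, edgeR adjusted p = 0.0808, 0.105 and 0.197) and without the filter on low counts (edgeR adjusted p = 0.0561). The groups did not overlap for 3 members, Pik3ap1, Btk and Cd37, beside 3.44% of all genes. Pik3ap1 was at least 1285.6 normalized counts in the 15 saline 39 °C rats and at most 1166.7 in the 4 saline 22.5 °C rats. Btk was at least 514.1 and at most 508.1 in these groups (0.59 ± 0.19, adjusted p = 0.0632). Cd37 went the other way, at most 4464.4 in the saline 39 °C rats and 4666.3, 4864.6, 4542.1 and 4553.8 in the saline 22.5 °C rats (-0.57 ± 0.25, adjusted p = 0.144). Beside these, the markers called were 0 higher and 1 lower of 8 T-cell markers, 1 and 0 of 6 monocyte markers, 0 and 0 of 6 neutrophil markers and 0 and 0 of 4 NK-cell markers, and their part was not tested.

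No member was called between the 2 normothermic saline groups. Saline 16 °C against saline 22.5 °C gave 0 called members by edgeR, beside 0.00714% of all genes called, 0% higher and 0.00714% lower, with 0 at an unadjusted p under 0.05 and 0 called by DESeq2. The median standard error of the members, 0.58, was the widest of the 8 comparisons between groups. The groups did not overlap for Pik3ap1, at 1927.4, 2327.5, 1439.4, 1464.1 and 1531.3 normalized counts in the saline 16 °C rats and at most 1166.7 in the saline 22.5 °C rats (0.64 ± 0.45, adjusted p = 0.688), beside 8.9% of all genes.

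Partners of the receptor cascade outside the list were counted over 19 genes. Between saline 39 °C and AMPH 16 °C, 6 were called higher and 1 lower at 39 °C, beside 14.3% of all genes called, 7.23% higher and 7.1% lower. Rasgrp3, an exchange factor for Ras, was higher (1.23 ± 0.31, adjusted p = 0.00431), as was the kinase Syk (0.71 ± 0.18, adjusted p = 0.00538), which docks at the receptor chains. Bcl10, which acts with Malt1 on the way to NF-kappaB, was lower (-0.69 ± 0.14, adjusted p = 0.000412). In AMPH 22.5 °C against AMPH 16 °C, 2 were called higher, Rasgrp3 among them (0.92 ± 0.28), and 1 lower (Bcl10, -0.51 ± 0.13), beside 10.3% of all genes called. Rasgrp3 was also called higher in saline 39 °C than in saline 16 °C (1.71 ± 0.50) and saline 22.5 °C rats (2.10 ± 0.53), and Bcl10 lower in saline 39 °C than in saline 16 °C rats (-0.94 ± 0.24), beside 8.77% of all genes called against saline 16 °C and 2.87% against saline 22.5 °C. In AMPH against saline at 22.5 °C, the kinase Lyn (0.99 ± 0.23) and Rasgrp3 (1.80 ± 0.44) were called higher, beside 2.54% of all genes. These comparisons share groups. Lyn and Syk act in myeloid cells as well. The part of other blood cells in the values of these partner genes, Rasgrp3 and Bcl10 among them, was not tested.

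Genes of the stages before and after the mature B cell were counted likewise. Of 7 plasma cell genes, Xbp1, a factor of secretory cells, was called higher in AMPH than in saline rats at 22.5 °C (1.84 ± 0.51, adjusted p = 0.0381), beside 2.54% of all genes called. Xbp1 was highest of the saline 22.5 °C rats in replicate 19 (2349.6 normalized counts), where 29 of the 32 members were lowest. It was lowest of the AMPH 22.5 °C rats in replicate 17 (767.3), where 22 members were highest. The part of other blood cells in the Xbp1 values was not tested. In AMPH 22.5 °C against AMPH 16 °C, Igj, the joining chain of secreted IgM and IgA, was called higher (1.07 ± 0.32, adjusted p = 0.0245) and Prdm1, a repressor of the B-cell programme, lower (-0.64 ± 0.20, adjusted p = 0.0333), beside 10.3% of all genes called. No plasma cell gene was called in the other 7 comparisons. Of 7 precursor B-cell genes 0 were called by edgeR in any of the 9 comparisons, the counts at an unadjusted p under 0.05 being 1 in AMPH 22.5 °C against AMPH 16 °C, 1 in saline 39 °C against AMPH 16 °C and 0 elsewhere. By group median, all but Il7r were near the floor. Single rats stood higher, such as saline 39 °C replicate 3 with Rag1 at 805.3 and Dntt at 164.0 normalized counts. In the saline 22.5 °C rats Rag2, Vpreb1, Vpreb2 and Igll1 had medians of 5.5, 3.7, 2.0 and 1.8 normalized counts. Rag1 and Dntt had 13.1 and 19.3 there, and Il7r 2186.7. The lack of calls among the low genes therefore says little about precursor B cells.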

How the data were processed

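Whole-blood RNA of single rats was measured by stranded mRNA sequencing after globin depletion. The authors aligned and quantified the reads, and the submitters' processing notes name CASAVA 1.8.2, Bowtie 0.12.9 and RSEM 1.2.0. The deposited values are RSEM expected counts per gene, 1 file per rat, which were rounded to whole numbers here. The trimmed-mean replacement of outlying values in the study's methods was not repeated. Rats with over 5000 Mb counts were left out. A gene was tested when 4 or more rats had 10 or more counts, with edgeR 4.0.16 (quasi-likelihood, TMM scaling, group and file code as terms, 42 residual degrees of freedom) in R 4.3.3, all groups sharing 1 fit. DESeq2 1.42.0 was an alternative and gave the size factors for levels. Other alternatives changed the code term, scaling, filter, rats and replicate block. The test was checked on simulated counts. Members are described by role, and other genes come from lists, with counts per list and at most 3 genes of lowest adjusted p named per list and comparison. The values of 1 gene of these lists are not reported here. The members and lists were chosen with earlier results of these data known. Rats are separate animals, so p-values measure the spread between rats. In the study, a control group of 6 rats lost 2 to high Mb, and the RNA of the other 4 was sequenced again. The study traced its poorer initial sequencing to a library kit reagent. The saline 22.5 °C rats have the same numbers (6 rats, 2 left out, 4 used), but the labels do not name them as that group. Which run the files hold is not given in the sources used here, and every comparison with saline 22.5 °C depends on it.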

Additional observations from a re-analysis of the deposited data

Results flagged for a closer look

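Cd72, an inhibitory co-receptor, stood apart in 1 saline 22.5 °C rat. Replicate 19 had 181.8 normalized counts and the next lowest rat 581.8, a gap of 0.847 of the group's range, beyond Dixon's 95% critical value for 4 rats. Of 64 gene and group combinations tested this was the only one beyond its critical value, where chance gives about 1 in 20, so it does not exceed chance. The same rat was the lowest of its group in 29 of the 32 members, so its low level is not particular to Cd72.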

How the results depend on the processing

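Of 123 recounts of called members, 89 stayed within 1.5 times the reported count, and none of the 133 recomputed values of called genes changed sign, while 21 were no longer called. These genes were chosen as called in the same rats, and an added cutoff on the fold change reused the values of the reported fit. The unchanged signs are therefore no separate support, and the recounts include comparisons with 0 called members. Without the file code term, called members numbered 4 in AMPH against saline at 22.5 °C (13% of all genes), 7 in AMPH 22.5 °C against AMPH 16 °C, and for saline 39 °C 4 against AMPH 22.5 °C, 15 against AMPH 16 °C, 4 against saline 16 °C and 6 against saline 22.5 °C. Where no share of all genes stands beside a count in this section, the count does not set the members apart from other genes. In AMPH against saline at 22.5 °C and saline 39 °C against saline 22.5 °C, size factors in edgeR gave 2 and 2, all 64 rats 2 and 2, DESeq2 2 and 2, and leaving out each saline rat 0 to 2 and 0 to 1. Leaving out AMPH 22.5 °C replicate 17 and saline 22.5 °C replicate 19 gave 10 and 2. For the former comparison, leaving out replicate 17 alone gave 4, shared file codes only gave 0 and AMPH rats of the saline rats' ID series only gave 0. Without the filter on low counts saline 39 °C against saline 22.5 °C gave 0. DESeq2 gave 1 in saline 39 °C against AMPH 22.5 °C. Shared file codes only gave 5 in AMPH 22.5 °C against AMPH 16 °C. They left 1 saline 39 °C rat against saline 16 °C, and could not be fitted for the saline comparisons with saline 22.5 °C. The cause of these changes was not tested. Whether depth limits the members was not tested.

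Replicate numbers did not pair the rats: 15 of 59 same-number pairs correlated above 0.1 (median r 0.005), and 4 of 56 rats correlated best with their own number. With the replicate block, called members numbered 0 in AMPH against saline at 22.5 °C, 7 in AMPH 22.5 °C against AMPH 16 °C, and for saline 39 °C 1 against AMPH 22.5 °C, 14 against AMPH 16 °C, 3 against saline 16 °C and 0 against saline 22.5 °C. These counts, too, are given without the share of all genes called. In this fit Pik3ap1 had a value of 0.27 in AMPH against saline at 22.5 °C and 0.20 in saline 39 °C against saline 22.5 °C (edgeR adjusted p = 0.681 and 0.817).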
